A study of Homo sapiens with 18 samples.

Results

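ZNF263 is a zinc-finger transcription factor with a SCAN domain, through which such proteins pair with one another, and a KRAB domain. In many, but not all, zinc-finger proteins a KRAB domain recruits co-repressors. The expression data described here come from H1 (WA01), an established human embryonic stem cell line, and compare clone 1-10, labelled a homozygous ZNF263 knockout made with Cas9, with unedited H1 wild type. Each of the 2 groups had 3 libraries, 6 of the 18 in the series. The other 12 libraries are used only as a second look: 6 of H9 (WA09) homozygous knockout clones (3 of 9-1 and 3 of 9-D) with 3 of H9 wild type, and single unreplicated libraries of H1 clone 1-10, of H1 clone 1-5 (labelled a heterozygous knockout) and of H1 wild type. The study asked what ZNF263 does in the pluripotent state and at its exit; the present comparison covers every autosomal gene, with gene families and pathways as the units of description.

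RNA was selected for poly(A) tails before library preparation, and the values are whole-read counts per gene. Totals were 15834341, 17668357 and 9663550 counts in clone 1-10, against 12343163, 15323576 and 13731778 counts in wild type. Levels are given as CPM (counts in a library scaled to a common total) scaled by edgeR's TMM factors; they are not divided by gene length, so they compare libraries and not genes. The labels do not say whether the 3 libraries of a group came from separate cultures, so p-values measure the spread between libraries of a single clone and of a single parental line. What the loss of ZNF263 did and what is peculiar to this clone cannot be told apart within H1. By a chi-square of counts, the library numbered 2 differed most from the others of its group (3.41 to 4.26 per gene, against 1.83 and 1.92 between the others). By other measures library 3 of clone 1-10, the shallowest, was the one apart: it correlated at 0.992 and 0.991 with libraries 1 and 2, which correlated at 0.993 with each other, and it lay at -21.4 on the second principal component, where libraries 1 and 2 lay at 7.37 and 17.0. The main counts are given below with and without these libraries.

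Human embryonic stem cells of the kind grown from H1 hold a pluripotency network while keeping genes of the later germ layers low but ready. Factors with KRAB domains are known mostly as repressors, and ZNF263 itself has been described as binding GGA-rich sequence and as acting on genes in both directions. The ZNF263 transcript itself was counted at 32.3, 33.3 and 36.1 CPM in clone 1-10, against 40.5, 42.02 and 39.6 CPM in wild type (log2 fold change -0.27, SE 0.0756, adjusted p = 0.0156). The groups did not overlap, but the message was still present in the knockout: the counts are per gene and do not resolve the edited part. The call was lost without clone 1-10 library 1 (adjusted p = 0.0971) and without wild-type library 2 (adjusted p = 0.0545).

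The cells carried the markers of the labelled cell type. The summed level of 15 pluripotent stem cell markers was 12465 to 12659 CPM in clone 1-10 and 11666 to 11952 CPM in wild type. By the test described below, 5 of the 15 were called higher in clone 1-10 and 0 lower, 33.3% beside 12.4% of all autosomal genes. Their median log2 fold change was 0.12, and 4 of the 5 calls held in all 6 fits that leave out 1 library. The sums of this paragraph are scaled to library totals without the TMM factors, while its values of single genes are TMM-scaled. Trophoblast and endoderm markers were low in both: 13 trophoblast and amnion markers summed to 21.0 to 22.9 CPM in clone 1-10 and 23.9 to 26.7 CPM in wild type, with WNT6 at 0 counts in all 6 libraries. The 11 endoderm markers summed to 12.8 to 21.6 CPM in clone 1-10 and 17.0 to 22.4 CPM in wild type, with TTR at 0. The 10 mesoderm markers gave 172 to 185 CPM in clone 1-10 and 195 to 198 CPM in wild type, and 12 fibroblast and feeder markers 588 to 698 CPM in clone 1-10 and 648 to 678 CPM in wild type. These 2 sums rested on few genes. KDR gave 164 to 181 CPM in clone 1-10 and 186 to 188 CPM in wild type, and THY1 378 to 425 CPM in clone 1-10 and 361 to 384 CPM in wild type. COL1A2 gave 119 to 145 CPM in clone 1-10 and 151 to 170 CPM in wild type, while the fibroblast markers DCN, LUM, FAP and TWIST1 did not pass the count filter. In a bulk sample, fewer cells of a type and less RNA per cell cannot be told apart.

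Of 14103 autosomal genes tested, 1752 (12.4%) differed at an adjusted p under 0.05 by edgeR's quasi-likelihood test, after adjustment by the Benjamini-Hochberg method. Of these, 706 (5.01%) were higher in clone 1-10 and 1046 (7.42%) lower. Most changes were small: over all tested genes the 5th percentile of the log2 fold change was -0.60, the median 0.00 and the 95th percentile 0.30. Changes of at least 2-fold were found in 194 genes (1.38%), 18 higher (0.128%) and 176 lower (1.25%). The groups did not overlap for 4181 genes (29.6%), called or not. Genes named below were mostly picked as called genes with large changes. A lack of overlap among them follows largely from that choice and is given as description only. Left-out libraries moved these counts: the total was 1053 without clone 1-10 library 1 and 907 without wild-type library 3, in which case 265 were higher and 642 lower. Without clone 1-10 library 3, 1274 genes were called, 462 higher and 812 lower, and 661 genes were called in all 6 fits that leave out 1 library. Without both libraries numbered 2, 2386 genes were called (1146 higher and 1240 lower), 1462 of them shared with the full set.

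Direction went with level. Among genes with a mean over 100 CPM, 240 of 2286 were higher and 94 lower in clone 1-10, with a median log2 fold change of 0.04, and none changed 2-fold. Between 10 and 100 CPM, which held most of the calls, 399 of 7205 were higher and 543 lower, with a median of 0.02. Between 1 and 10 CPM, 60 of 3924 were higher and 365 lower, with a median of -0.12. Below 1 CPM, 7 of 688 were higher and 44 lower. Of the 176 genes at least 2-fold lower, 44 were below 1 CPM, 112 between 1 and 10 CPM and 20 between 10 and 100 CPM. Rises outnumbered falls only above 100 CPM.

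**Figure D1:**
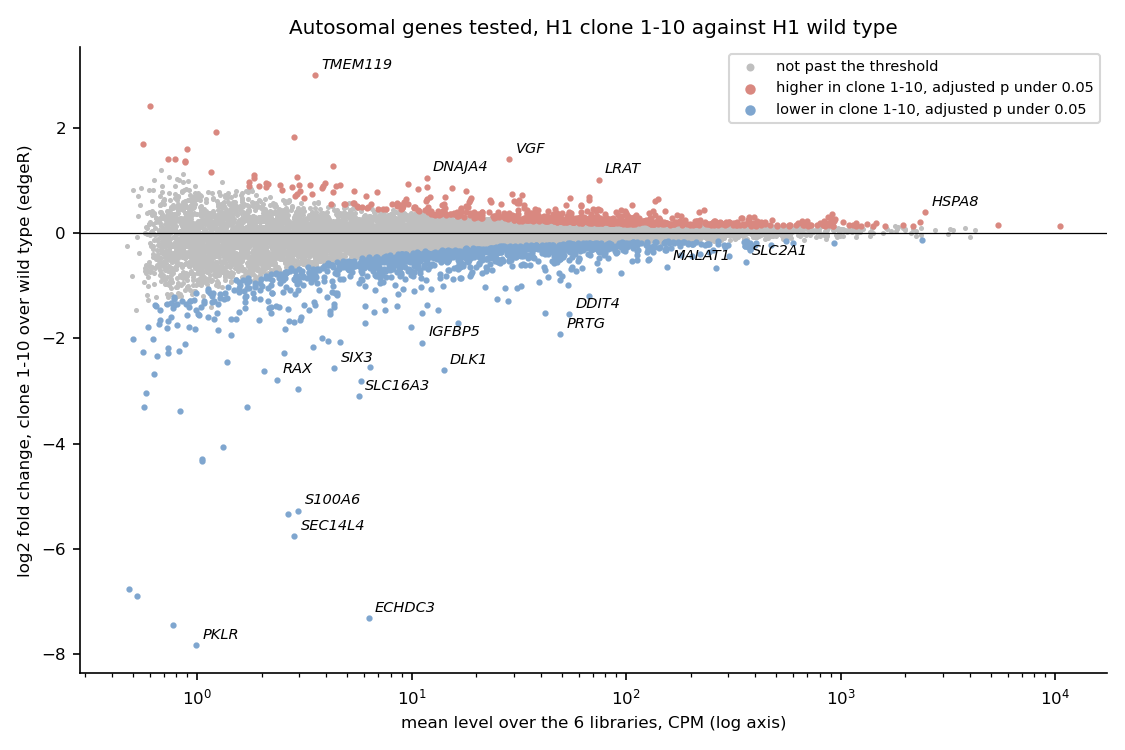
Log2 fold change (clone 1-10 over wild type, vertical axis) against mean level in CPM (horizontal log axis) for autosomal genes tested; red points are higher and blue points lower in clone 1-10 at adjusted p under 0.05, grey points are not past it. The falls spread to below -7 at low levels, while above 100 CPM no gene passed a 2-fold change.

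Among genes averaging at least 10 CPM, the largest rise was that of VGF, the precursor of neuropeptides stored in dense-core vesicles. It was counted at 39.9, 44.8 and 39.4 CPM in clone 1-10, against 15.2, 15.5 and 16.6 CPM in wild type (log2 fold change 1.39, SE 0.0875, adjusted p = 2.30e-13). DNAJA4, an HSP40-type co-chaperone, stood at 15.9, 15.9 and 15.6 CPM in clone 1-10, against 8.39, 6.79 and 7.85 CPM in wild type (log2 fold change 1.05, SE 0.120, adjusted p = 1.24e-07). Its 3 knockout libraries differed by less than 1 CPM and all lay well above every wild-type library. LRAT, the enzyme that esterifies retinol for storage, had 103.6, 90.6 and 104.4 CPM in clone 1-10, against 55.3, 45.4 and 47.3 CPM in wild type (log2 fold change 1.01, SE 0.0719, adjusted p = 4.53e-12). All 3 genes were separated between the groups with no overlap.

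The next rises joined receptors, a contractile protein and regulators of transcription. The serotonin receptor gene HTR1D was at 14.99, 16.9 and 13.6 CPM in clone 1-10, against 8.15, 8.79 and 8.14 CPM in wild type (log2 fold change 0.87, SE 0.120, adjusted p = 3.89e-06). ACTA1, the actin of skeletal muscle, was at 19.5, 25.5 and 14.2 CPM in clone 1-10, against 11.7, 11.3 and 10.5 CPM in wild type (log2 fold change 0.86, SE 0.136, adjusted p = 3.68e-05), and its knockout libraries were the most scattered, relative to their mean, among the 14 rises while still above all of wild type. LHX4, a LIM-homeodomain factor of pituitary and motor neuron development, was at 13.2, 12.5 and 15.7 CPM in clone 1-10, against 5.68, 8.02 and 9.07 CPM in wild type (log2 fold change 0.83, SE 0.140, adjusted p = 8.69e-05). JUN, a subunit of the AP-1 transcription factor, was at 37.03, 41.6 and 31.6 CPM in clone 1-10, against 19.8, 23.5 and 22.97 CPM in wild type (log2 fold change 0.75, SE 0.0934, adjusted p = 7.17e-07); in the single libraries JUN stood at 41.8 CPM in clone 1-10 and 39.1 CPM in wild type, a difference far smaller than that between the triplicates. These 4 genes again showed no overlap between groups.

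PTCH1, the Hedgehog receptor and at the same time one of the best known targets of the pathway, stood at 85.9, 79.4 and 83.8 CPM in clone 1-10, against 49.96, 53.2 and 52.3 CPM in wild type (log2 fold change 0.68, SE 0.0635, adjusted p = 2.09e-09). TTC39C was at 71.6, 61.4 and 67.5 CPM in clone 1-10, against 44.3, 45.1 and 37.6 CPM in wild type (log2 fold change 0.66, SE 0.0753, adjusted p = 1.33e-07). RASGRF2, an exchange factor that activates RAS and RAC, was at 41.04, 40.03 and 40.8 CPM in clone 1-10, against 26.7, 25.2 and 22.5 CPM in wild type (log2 fold change 0.71, SE 0.0810, adjusted p = 1.13e-07). In each of the 3, the lowest knockout library lay above the highest wild-type library by more than 10 CPM. The metalloproteinase inhibitor TIMP4, the mucin-like PARM1, the cytidine deaminase APOBEC3B and RPRM, a gene tied to p53-dependent cell-cycle arrest, completed the set with log2 fold changes of 0.80, 0.69, 0.68 and 0.67.

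On the side of the falls, DLK1, an imprinted gene for a noncanonical NOTCH ligand, was counted at 3.24, 3.64 and 5.67 CPM in clone 1-10, against 19.6, 28.8 and 23.8 CPM in wild type (log2 fold change -2.60, SE 0.156, adjusted p = 8.92e-14). IGFBP5, an insulin-like growth factor binding protein, was at 3.56, 5.03 and 4.199 CPM in clone 1-10, against 12.1, 20.9 and 21.2 CPM in wild type (log2 fold change -2.08, SE 0.173, adjusted p = 1.45e-10). PRTG (protogenin), an immunoglobulin-superfamily receptor of early embryos, was at 20.1, 15.8 and 28.03 CPM in clone 1-10, against 74.6, 71.8 and 86.3 CPM in wild type (log2 fold change -1.91, SE 0.108, adjusted p = 2.82e-14). All 3 knockout libraries lay below every wild-type library in each, and wild-type library 1 was the lowest of its group for IGFBP5.

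DDIT4 and BNIP3 formed a pair of another shape. DDIT4 (REDD1), an inhibitor of mTORC1, was at 26.8, 27.1 and 29.5 CPM in clone 1-10, against 65.6, 63.1 and 113.2 CPM in wild type (log2 fold change -1.54, SE 0.131, adjusted p = 2.16e-10). BNIP3, a receptor for mitophagy, was at 22.6, 20.6 and 21.9 CPM in clone 1-10, against 56.04, 41.6 and 89.8 CPM in wild type (log2 fold change -1.53, SE 0.150, adjusted p = 6.29e-09). The knockout values were tight and wild-type library 3 was the highest of all 6 for both genes. NPTX1, a neuronal pentraxin, with 6.61, 8.43 and 7.98 CPM in clone 1-10, against 19.4, 18.6 and 37.7 CPM in wild type, and PPFIA4, a liprin of the synapse, with 6.16, 6.82 and 6.72 CPM in clone 1-10, against 15.1, 12.7 and 23.3 CPM in wild type, were highest in that same library. Every knockout library still lay below every wild-type library for these 4 genes, and each remained called without library 3.

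LRRC4B, a postsynaptic adhesion protein, was at 14.7, 17.04 and 17.2 CPM in clone 1-10, against 36.3, 38.3 and 45.5 CPM in wild type (log2 fold change -1.30, SE 0.0949, adjusted p = 8.98e-12). Its groups did not overlap, and the spread within them was small beside the gap. BST2 (tetherin), which holds enveloped viruses at the cell surface, was at 5.34, 5.37 and 6.82 CPM in clone 1-10, against 14.8, 16.5 and 18.1 CPM in wild type (log2 fold change -1.52, SE 0.131, adjusted p = 3.08e-10). The RNA-binding protein gene CELF5 fell by 1.11 and the cadherin gene CDH6 by 1.07 on the log2 scale. MIR4454, a microRNA gene, fell by 1.46 and the pseudogene ZNF788 by 1.25; reads of both can be shared with near-identical sequence elsewhere, so these 2 values are uncertain. All of these largest rises and falls kept their call in each fit that left out 1 library.

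**Figure D2:**
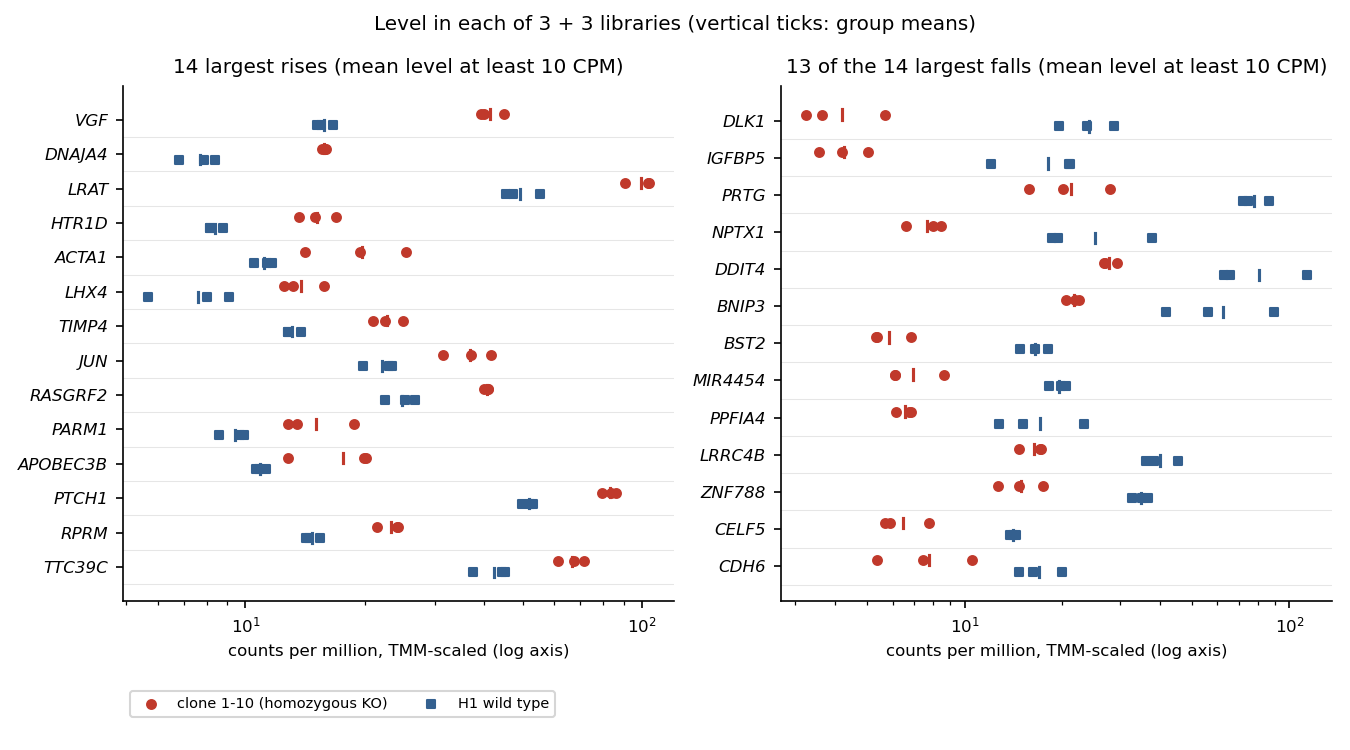
Level in each library (CPM, log axis) for the 14 largest rises (left panel) and 13 of the 14 largest falls (right panel) among called autosomal genes averaging at least 10 CPM; red circles are the 3 clone 1-10 libraries, blue squares the 3 wild-type libraries, and vertical ticks the group means. No gene has overlapping groups, which follows largely from the choice of the largest called changes. DDIT4, BNIP3, NPTX1 and PPFIA4 show 1 high wild-type library each.

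The 250 bases upstream of the start site are shown for the 3 largest rises and the 3 largest falls of these sets that the RefSeq promoter table (GRCh38.p14) holds, because they carry the largest well-measured changes; capitals mark GGAGGAG or its reverse complement CTCCTCC, searched on both strands as a short form of the GGA-rich sequence described for ZNF263. VGF lies on the minus strand (chr7:101165570-101165819), DNAJA4 on the plus strand (chr15:78263895-78264144) and LRAT on the plus strand (chr4:154743750-154743999). IGFBP5 is on the minus strand (chr2:216695550-216695799), PRTG on the minus strand (chr15:55743153-55743402) and DDIT4 on the plus strand (chr10:72273674-72273923). The windows are 61.2% to 76.8% G and C.
VGF: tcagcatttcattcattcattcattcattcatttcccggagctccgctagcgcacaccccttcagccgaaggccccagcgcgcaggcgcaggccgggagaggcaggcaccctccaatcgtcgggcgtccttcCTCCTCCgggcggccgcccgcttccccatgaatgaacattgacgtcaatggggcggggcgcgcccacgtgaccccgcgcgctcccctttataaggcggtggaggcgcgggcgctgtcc
DNAJA4: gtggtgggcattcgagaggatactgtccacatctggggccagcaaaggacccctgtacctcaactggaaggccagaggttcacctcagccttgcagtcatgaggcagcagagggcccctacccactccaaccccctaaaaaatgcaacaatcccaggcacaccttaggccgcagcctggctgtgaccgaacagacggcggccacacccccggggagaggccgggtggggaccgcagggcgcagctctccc
LRAT: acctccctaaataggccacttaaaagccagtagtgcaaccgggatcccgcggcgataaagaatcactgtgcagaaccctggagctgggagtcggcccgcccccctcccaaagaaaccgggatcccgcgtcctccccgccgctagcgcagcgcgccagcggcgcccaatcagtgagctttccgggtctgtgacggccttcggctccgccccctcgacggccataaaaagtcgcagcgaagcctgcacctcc
IGFBP5: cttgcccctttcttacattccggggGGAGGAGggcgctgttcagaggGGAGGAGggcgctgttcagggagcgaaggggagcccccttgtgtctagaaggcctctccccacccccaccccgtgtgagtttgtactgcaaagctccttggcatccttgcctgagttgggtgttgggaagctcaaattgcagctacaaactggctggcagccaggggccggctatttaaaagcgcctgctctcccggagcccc
PRTG: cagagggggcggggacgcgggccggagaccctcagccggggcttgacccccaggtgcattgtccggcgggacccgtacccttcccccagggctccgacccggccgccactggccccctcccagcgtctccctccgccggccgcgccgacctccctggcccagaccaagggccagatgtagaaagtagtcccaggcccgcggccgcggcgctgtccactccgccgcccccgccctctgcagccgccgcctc
DDIT4: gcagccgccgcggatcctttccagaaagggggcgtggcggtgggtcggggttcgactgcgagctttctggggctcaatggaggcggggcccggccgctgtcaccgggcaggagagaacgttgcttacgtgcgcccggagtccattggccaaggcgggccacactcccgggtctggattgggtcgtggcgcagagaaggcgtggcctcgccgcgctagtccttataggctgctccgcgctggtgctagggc

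VGF holds the motif 1 time, IGFBP5 2 times, and the other 4 windows 0 times. Across the autosomal genes tested with an entry in the table, 21.8% of 11153 promoters held it. The share was 19.9% of 577 genes higher in clone 1-10 and 25.5% of 753 genes lower. Among changes of at least 2-fold it was 5 of 13 higher genes and 40 of 121 lower ones (33.1%). In the whole table of 27305 promoters it was 17.5%. The median share of G and C was 64.0% in promoters of higher genes, 67.2% in those of lower genes and 65.2% over all tested, and 63.2% in promoters of genes at least 2-fold lower; its part in the shares with the motif was not tested.

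Below 10 CPM lay the steepest falls, several of them to no counts at all. PKLR, the liver and red cell pyruvate kinase, had 0 counts in the 3 knockout libraries against 22, 37 and 25 counts in wild type, at least 29.2-fold lower (the bound rests on 3 counts over the knockout group). CHP2, a calcineurin-like calcium-binding protein, had 0 counts in clone 1-10 against 21, 21 and 22 counts in wild type, at least 22.2-fold lower. The B-cell scaffold gene BANK1 had 0 against 14, 20 and 10 counts, at least 15.3-fold lower. The antisense RNA ZNF667-AS1 had 0 against 12, 13 and 15 counts, at least 13.9-fold lower; whether counting kept the strands apart is not given in the sources used here. ECHDC3, an enoyl-CoA hydratase family gene, had 1, 2 and 0 counts against 145, 205 and 177, a ratio of 183 (95% counting interval 62.3 to 891, counting error only).

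S100A6, SEC14L4 and GDA followed. S100A6, a calcium-binding protein, was at 0.254, 0.0578 and 0.105 CPM in clone 1-10, against 6.08, 6.08 and 5.18 CPM in wild type (log2 fold change -5.27, SE 0.362, adjusted p = 2.44e-12). SEC14L4, a lipid-binding protein of the SEC14 family, was at 0.191, 0.0578 and 0 CPM in clone 1-10, against 6.16, 4.91 and 5.69 CPM in wild type (log2 fold change -5.76, SE 0.401, adjusted p = 3.02e-12). GDA, the guanine deaminase, was at 0.191, 0.0578 and 0.105 CPM in clone 1-10, against 7.35, 3.81 and 4.39 CPM in wild type (log2 fold change -5.34, SE 0.431, adjusted p = 9.37e-11). These 8 genes were the largest called falls under 10 CPM, and none overlapped between groups. With so few knockout counts they passed the count filter only through wild type, so the lack of overlap is no separate support.

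The same genes could be read in the single libraries, which were not part of the fit. ECHDC3 stood at 0 CPM in the single clone 1-10 library, 13.3 CPM in the heterozygous clone 1-5 and 11.96 CPM in wild type. PKLR stood at 0, 3.59 and 2.48 CPM in the same order, SEC14L4 at 0.226, 5.57 and 5.14 CPM, and S100A6 at 0, 4.65 and 4.34 CPM. Clone 1-5 thus lay close to wild type, and clone 1-10 at or near 0, for each of these 4. CHP2 had 0 counts in clone 1-10, 9 in clone 1-5 and 13 in wild type, and BANK1 0, 4 and 13 counts. GDA did not separate there, with 0.0752 CPM in clone 1-10, 0.381 CPM in clone 1-5 and 0.443 CPM in wild type, far below the wild-type triplicates.

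**Figure D3:**
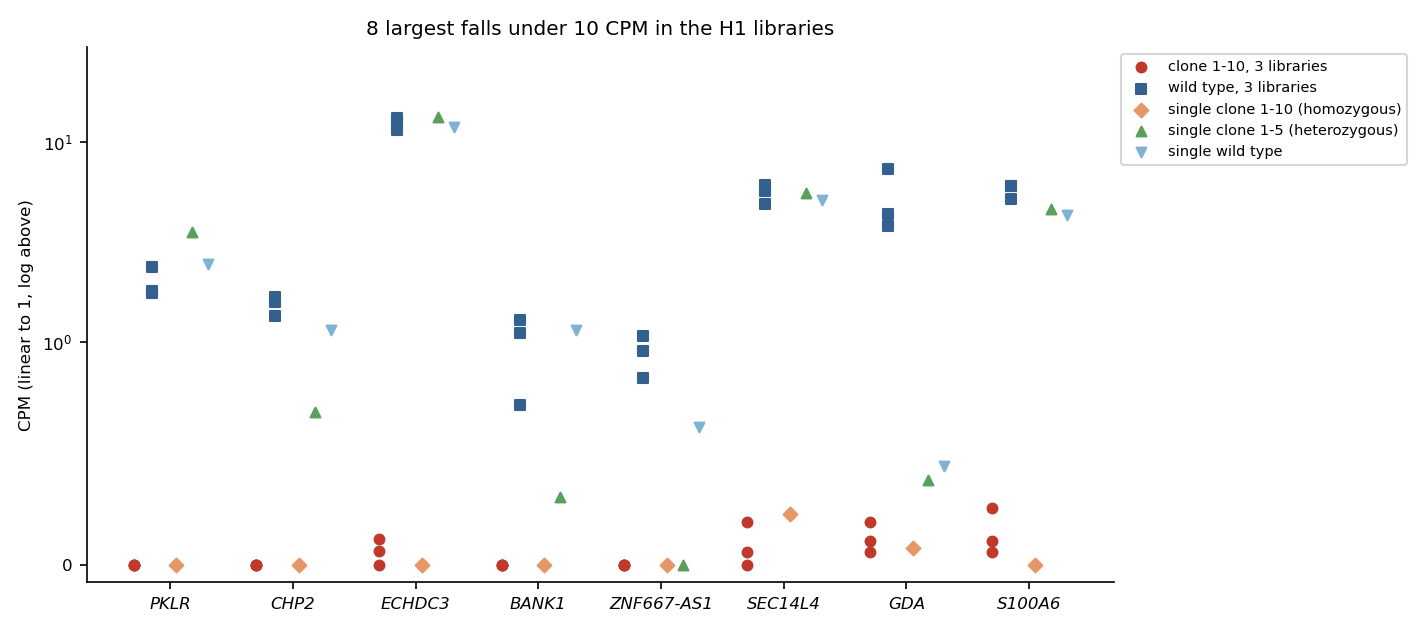
Level (CPM, linear up to 1 and logarithmic above) of the 8 largest falls under 10 CPM in the H1 libraries; from left to right for each gene, the 3 clone 1-10 libraries, the 3 wild-type libraries, and the single clone 1-10, clone 1-5 and wild-type libraries. PKLR, CHP2, ECHDC3 and BANK1 are at or near 0 in all 4 libraries of clone 1-10 and above it in clone 1-5.

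Rises of weak genes were fewer and rested on fewer counts. TMEM119 was at 6.29, 6.35 and 6.298 CPM in clone 1-10, against 0.959, 0.970 and 0.432 CPM in wild type (log2 fold change 2.99, SE 0.252, adjusted p = 1.98e-10), the largest rise of any autosomal gene, and the single libraries held 6.55 CPM in clone 1-10, 4.58 CPM in clone 1-5 and 0.974 CPM in wild type. NR1I2, the nuclear xenobiotic receptor PXR, was at 3.68, 4.85 and 4.83 CPM in clone 1-10, against 1.12, 1.49 and 1.08 CPM in wild type (log2 fold change 1.83, SE 0.246, adjusted p = 2.61e-06). CALCA, which encodes calcitonin and CGRP, was at 1.14, 1.16 and 0.735 CPM in clone 1-10, against 0.320, 0.194 and 0.0720 CPM in wild type (log2 fold change 2.40, SE 0.524, adjusted p = 0.00199), but at 0.0752 CPM in the single clone 1-10 library and 0.354 CPM in the single wild type. AGBL4, a deglutamylase of tubulin, with a log2 fold change of 1.91, and the stathmin gene STMN4, with 1.59, did not overlap between groups. In the single libraries STMN4 went the other way, at 0.527 CPM in clone 1-10 and 0.886 CPM in wild type. AGBL4 was at 1.66 and 0.886 CPM there. TTLL13P (1.69), SNORD116-2 (1.41) and SNORD99 (1.40) were the other large rises, and each lost its call when a single library was left out. TTLL13P gave adjusted p = 0.109 without wild-type library 1 and 0.0967 without library 2. SNORD99 gave 0.177 without wild-type library 2 and 0.116 without library 3. SNORD116-2 gave 0.0568 and 0.174 without clone 1-10 libraries 1 and 2, and 0.202 and 0.068 without wild-type libraries 2 and 3. Small nucleolar RNAs are not polyadenylated, so a poly(A) library counts them poorly.

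Among genes with high CPM, those with a change of at least 0.5 on the log2 scale included a general translation gene. BTF3, a subunit of the nascent polypeptide-associated complex that meets new chains at the ribosome, was at 200.9, 206.4 and 203.7 CPM in clone 1-10, against 326.9, 317.9 and 321.5 CPM in wild type (log2 fold change -0.66, SE 0.0484, adjusted p = 9.03e-12). The SD within each group was under 5 CPM (2.76 in clone 1-10 and 4.52 in wild type). The single libraries gave 222 CPM in clone 1-10, 366 CPM in heterozygous clone 1-5 and 334 CPM in wild type. SLC2A1, the glucose transporter GLUT1, was at 284.4, 316.2 and 282.8 CPM in clone 1-10, against 421.8, 390.4 and 480.0 CPM in wild type (log2 fold change -0.55, SE 0.0586, adjusted p = 3.61e-08). MALAT1, a nuclear long noncoding RNA, was at 115.5, 118.2 and 128.5 CPM in clone 1-10, against 198.8, 179.6 and 185.4 CPM in wild type (log2 fold change -0.64, SE 0.0573, adjusted p = 7.26e-10). For all 3 the groups were apart.

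Higher in this class were LINGO1, a NOGO receptor partner in neurons, TAGLN, a smooth muscle actin-binding protein, and PRDM14, a regulator of naive pluripotency and germ cells. LINGO1 was at 163.9, 185.6 and 163.7 CPM in clone 1-10, against 112.6, 99.4 and 116.1 CPM in wild type (log2 fold change 0.65, SE 0.0626, adjusted p = 4.19e-09). TAGLN was at 155.5, 188.1 and 148.9 CPM in clone 1-10, against 108.6, 119.9 and 96.6 CPM in wild type (log2 fold change 0.60, SE 0.0729, adjusted p = 3.81e-07). PRDM14 was at 125.3, 128.7 and 125.0 CPM in clone 1-10, against 87.9, 89.5 and 85.98 CPM in wild type (log2 fold change 0.53, SE 0.0568, adjusted p = 4.21e-08). The junctophilin gene JPH4, the immunoglobulin-superfamily gene IGDCC3, ISYNA1, which makes inositol phosphate from glucose, and FBN2 (fibrillin 2) were lower, by 0.51, 0.52, 0.53 and 0.77 on the log2 scale.

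Gene families were described by how many of their tested members were called, beside 12.4% of all autosomal genes, and by the median log2 fold change of the tested members, beside 0.00 over all. That background varied with level: genes between 1 and 10 CPM had a median of -0.12, with 60 of 3924 higher and 365 lower. Below 1 CPM the median was -0.17. How far the level of its members accounts for the median and the falls of a family was not tested. Members low enough to fail the count filter were not tested. The count of called members that held in all 6 fits leaving out 1 library is given for most families, and named members are of that kind unless stated.

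Homeobox genes outside the HOX clusters, most of them regulators of regional identity, had more falls than rises. Of 130 counted, 62 were tested, 4 were higher and 18 lower, with a median of -0.19, and 13 of these 22 calls held in all 6 fits. The eye-field factor RAX was at 0.572, 0.578 and 0.630 CPM in clone 1-10, against 4.24, 4.46 and 3.601 CPM in wild type (log2 fold change -2.79, SE 0.288, adjusted p = 1.66e-08). SIX3, a partner of RAX in the anterior forebrain, was at 0.953, 1.68 and 1.05 CPM in clone 1-10, against 7.27, 8.34 and 6.91 CPM in wild type (log2 fold change -2.57, SE 0.218, adjusted p = 2.27e-10). LHX2, another forebrain factor, was at 1.397, 1.44 and 1.89 CPM in clone 1-10, against 4.96, 7.76 and 5.47 CPM in wild type (log2 fold change -1.99, SE 0.229, adjusted p = 1.43e-07). For each of the 3 the groups were far apart, at levels of a few CPM in wild type. MEIS1, a partner of HOX proteins, was lower by 2.11. LHX5, PAX6, EMX1 and POU3F1, all of neural development, were lower by 1.82, 1.12, 0.82 and 0.84 on the log2 scale, as was the streak factor MIXL1, by 1.71. Against that direction, HESX1, a repressor of the anterior neural plate and pituitary, was higher with 21.8, 21.1 and 25.3 CPM in clone 1-10, against 16.5, 14.03 and 13.7 CPM in wild type (log2 fold change 0.62, SE 0.104, adjusted p = 8.69e-05), beside LHX4. None of the 39 HOX cluster genes passed the count filter.

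The T-box family had 5 tested members of 15, and 2 were lower: EOMES, which drives mesendoderm, at 1.91, 0.924 and 2.83 CPM in clone 1-10, against 7.75, 7.43 and 6.84 CPM in wild type (log2 fold change -2.07, SE 0.229, adjusted p = 6.66e-08), and T (brachyury), at 0.0947 ± 0.0275 CPM in clone 1-10 and 1.03 ± 0.429 CPM in wild type (SD, n = 3 each). Of 14 SOX genes tested, 3 were lower and 0 higher; SOX9, a factor of neural crest and cartilage, was at 11.2, 8.32 and 9.13 CPM in clone 1-10, against 14.5, 15.3 and 14.3 CPM in wild type (log2 fold change -0.62, SE 0.122, adjusted p = 0.000642) and was the 1 call that held in every fit. SP5, a WNT-responsive factor of the SP family, was at 0.381, 1.68 and 1.89 CPM in clone 1-10, against 4.72, 6.4 and 5.76 CPM in wild type (log2 fold change -2.17, SE 0.281, adjusted p = 1.34e-06). KLF7, of the related KLF family, moved the other way, with 47.1, 44.4 and 43.1 CPM in clone 1-10, against 32.2, 32.3 and 34.9 CPM in wild type (log2 fold change 0.44, SE 0.0747, adjusted p = 8.91e-05); they were the 2 called among 20 GATA, KLF and SP genes.

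Helix-loop-helix genes split, 4 of 21 higher and 4 lower, with 1 rise and 3 falls that held in all 6 fits. ID1, which blocks other helix-loop-helix factors and answers to BMP, was at 82.5, 92.7 and 71.6 CPM in clone 1-10, against 63.95, 61.2 and 60.6 CPM in wild type (log2 fold change 0.42, SE 0.0715, adjusted p = 9.80e-05). MYCL was at 17.4, 18.1 and 18.7 CPM in clone 1-10, against 27.1, 29.8 and 31.5 CPM in wild type (log2 fold change -0.71, SE 0.0905, adjusted p = 9.34e-07), and HES6 and BHLHE40 fell by 0.39 and 0.88. Both MYCL and ID1 showed no overlap between groups. The SCAN-domain family, to which ZNF263 belongs, had few calls: of 47 tested, 1 was higher and 1 lower (ZNF263 itself), neither held in all 6 fits, and the median was 0.01.

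Among 441 other tested ZNF genes 24 were higher and 18 lower, 9.52% in all, but of the 14 calls that held in all 6 fits 4 were higher and 10 lower. Single members changed steeply: ZNF558 was at 1.08, 0.866 and 2.83 CPM in clone 1-10, against 9.75, 8.99 and 11.2 CPM in wild type (log2 fold change -2.82, SE 0.233, adjusted p = 1.39e-10) and ZNF280D at 0.191, 0.116 and 0.105 CPM in clone 1-10, against 1.84, 1.94 and 3.74 CPM in wild type (log2 fold change -4.07, SE 0.484, adjusted p = 2.64e-07). ZNF503, a repressor of developing brain and limb, was at 1.397, 2.14 and 0.840 CPM in clone 1-10, against 3.28, 7.18 and 3.38 CPM in wild type (log2 fold change -1.59, SE 0.292, adjusted p = 0.000280). The 3 genes showed no overlap between groups. ZNF genes share repeated finger sequence, so some reads may be split between copies.

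Signalling families differed in shape. In the Hedgehog pathway, where a ligand relieves PTCH1's block of SMO and lets GLI factors act, 2 members were higher, PTCH1 and GLI1, and 5 of 15 lower. GLI1, like PTCH1 a target of the pathway, was at 36.4, 42.3 and 34.3 CPM in clone 1-10, against 26.1, 27.9 and 22.8 CPM in wild type (log2 fold change 0.57, SE 0.0892, adjusted p = 3.40e-05). The co-receptors GAS1 and BOC were lower, GAS1 at 9.08, 9.01 and 7.14 CPM in clone 1-10, against 10.6, 14.8 and 13.9 CPM in wild type (log2 fold change -0.62, SE 0.134, adjusted p = 0.00175) and BOC at 9.85, 9.59 and 9.55 CPM in clone 1-10, against 13.2, 13.1 and 14.4 CPM in wild type (log2 fold change -0.49, SE 0.116, adjusted p = 0.00470). GLI3, mainly a repressor in this pathway, was lower by 0.30. Of the 7 calls, 5 held in every fit. The groups overlapped for none of PTCH1, GLI1 and BOC.

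NOTCH pathway genes fell more often than they rose. Of 28 tested, 1 was higher and 8 lower, 5 calls held in all 6 fits, and the median was -0.10. Besides DLK1, the ligand gene JAG2 was at 4.95, 6.99 and 4.62 CPM in clone 1-10, against 10.95, 11.6 and 11.2 CPM in wild type (log2 fold change -0.996, SE 0.146, adjusted p = 1.05e-05). The receptor NOTCH1, the glycosyltransferase LFNG and the feedback gene NRARP were lower by 0.42, 0.34 and 0.34. Among growth factor genes, 4 of 17 insulin and IGF axis members were lower and 0 higher, with IGFBP2 at 326.8, 369.3 and 306.8 CPM in clone 1-10, against 398.8, 392.7 and 466.8 CPM in wild type (log2 fold change -0.32, SE 0.0606, adjusted p = 0.000349). IGFBP5 and IGFBPL1 were the other 2 that held in every fit.

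In the BMP, activin and TGF-beta pathway 2 of 48 were higher and 5 lower, a share of 14.6% close to the 12.4% of all genes, with 4 of the 7 calls held in all 6 fits. INHBA, a subunit of activin A, was at 5.59, 5.72 and 4.09 CPM in clone 1-10, against 3.198, 2.97 and 2.02 CPM in wild type (log2 fold change 0.94, SE 0.206, adjusted p = 0.00200). The latent TGF-beta binding proteins LTBP4 and LTBP3 were lower, LTBP4 at 37.99, 42.5 and 40.6 CPM in clone 1-10, against 54.5, 57.98 and 59.1 CPM in wild type (log2 fold change -0.50, SE 0.0706, adjusted p = 5.27e-06). Retinoid genes had 2 rises and 3 falls among 16, 3 of these calls holding in all fits: LRAT was higher, while STRA6, the receptor that takes up retinol, was lower at 7.11, 5.78 and 10.1 CPM in clone 1-10, against 11.4, 12.7 and 12.2 CPM in wild type (log2 fold change -0.72, SE 0.146, adjusted p = 0.000949). The median of the retinoid list, 0.06, turned negative without clone 1-10 library 2 (-0.04).

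Targets of YAP and of SRF, which respond to tension and actin, also went both ways: 6 of 28 were higher and 9 lower, but 5 of these 15 calls held in all 6 fits. TAGLN and MYL9, both smooth muscle genes, were higher, MYL9 at 147.6, 169.7 and 140.2 CPM in clone 1-10, against 115.4, 129.2 and 115.8 CPM in wild type (log2 fold change 0.35, SE 0.0641, adjusted p = 0.000300). ACTA2, another smooth muscle gene, was lower at 1.397, 1.16 and 1.05 CPM in clone 1-10, against 2.32, 4.46 and 2.81 CPM in wild type (log2 fold change -1.41, SE 0.285, adjusted p = 0.000906). Of 31 phosphodiesterase and RGS genes, 3 were higher and 3 lower, and 2 of the rises held in every fit; PDE4B, which breaks down cyclic AMP, was at 37.3, 35.8 and 35.7 CPM in clone 1-10, against 26.4, 24.6 and 20.3 CPM in wild type (log2 fold change 0.61, SE 0.0880, adjusted p = 7.55e-06).

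Ephrins and their Eph receptors, which sort and repel cells at contact, had falls and no rises. Of 20 tested members 0 were higher and 10 lower, with a median of -0.34, and 4 of the 10 calls held in every fit. EPHB2 was at 25.7, 26.3 and 28.9 CPM in clone 1-10, against 37.01, 39.8 and 45.4 CPM in wild type (log2 fold change -0.61, SE 0.0842, adjusted p = 4.45e-06). EPHB3 was at 2.48, 2.48 and 2.099 CPM in clone 1-10, against 4.88, 3.94 and 4.46 CPM in wild type (log2 fold change -0.88, SE 0.208, adjusted p = 0.00425). EPHA4 and EPHA7 fell by 0.51 and 0.38. In these 4 receptors every knockout library was below every wild-type library. In H9 the median of the same list was -0.23.

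Semaphorins, plexins and neuropilins, a second guidance system, had 0 of 29 higher and 8 lower, 6 of them holding in all fits. SEMA6C was at 13.3, 11.8 and 10.9 CPM in clone 1-10, against 22.5, 19.8 and 23.6 CPM in wild type (log2 fold change -0.86, SE 0.107, adjusted p = 6.94e-07). SEMA6B was at 68.03, 71.3 and 66.7 CPM in clone 1-10, against 92.01, 97.8 and 97.2 CPM in wild type (log2 fold change -0.48, SE 0.0599, adjusted p = 7.79e-07). PLXND1, a receptor of vessels and neurons, was at 42.8, 51.6 and 35.6 CPM in clone 1-10, against 69.1, 68.4 and 67.98 CPM in wild type (log2 fold change -0.64, SE 0.0826, adjusted p = 1.20e-06). NRP2, SEMA3F and PLXNB2 fell by 0.39, 0.42 and 0.33. Of 22 SLIT, ROBO, netrin and UNC5 genes, 2 were higher and 4 lower, and 3 of the falls held in every fit, with the netrin receptor UNC5C at 2.03, 1.96 and 2.62 CPM in clone 1-10, against 4.397, 7.82 and 6.27 CPM in wild type (log2 fold change -1.53, SE 0.218, adjusted p = 6.50e-06) and the SLIT and ROBO effector SRGAP3 lower by 0.69.

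Cadherins and unclustered protocadherins had 1 of 33 higher and 10 lower, with a median of -0.22 and 6 calls that held in every fit. Besides CDH6, the neural CDH2 (N-cadherin) fell by 0.39, PCDH10 by 0.77, CDH4 by 0.46 and CDH24 by 0.42. CDH2 was at 80.8, 78.7 and 74.5 CPM in clone 1-10, against 101.8, 103.8 and 101.2 CPM in wild type (log2 fold change -0.39, SE 0.0587, adjusted p = 1.85e-05). EPCAM, an epithelial adhesion protein, was higher at 249.5, 241.5 and 256.6 CPM in clone 1-10, against 191.9, 182.0 and 195.3 CPM in wild type (log2 fold change 0.39, SE 0.0513, adjusted p = 1.46e-06). In claudins and tight junction genes 4 of 26 were higher and 3 lower, 3 of these calls holding in every fit. CLDN7 was at 117.1, 130.5 and 129.7 CPM in clone 1-10, against 103.9, 98.97 and 105.6 CPM in wild type (log2 fold change 0.29, SE 0.0592, adjusted p = 0.000991).

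In the extracellular matrix, collagens had 2 of 34 higher and 12 lower, a median of -0.25 and 7 calls that held in all fits. COL7A1, of anchoring fibrils, was at 4.26, 4.101 and 3.57 CPM in clone 1-10, against 7.91, 8.92 and 7.49 CPM in wild type (log2 fold change -1.01, SE 0.159, adjusted p = 3.25e-05). COL2A1, of cartilage, was at 34.6, 42.97 and 30.96 CPM in clone 1-10, against 59.0, 67.9 and 66.3 CPM in wild type (log2 fold change -0.82, SE 0.0850, adjusted p = 1.94e-08). COL6A1 went the other way, at 255.7, 287.1 and 253.7 CPM in clone 1-10, against 201.9, 192.4 and 199.5 CPM in wild type (log2 fold change 0.43, SE 0.0536, adjusted p = 7.94e-07). In the fibroblast list, COL3A1 was lower by 1.67 and PDGFRA higher by 0.70, so the fibroblast markers did not move as one. The collagen list had a median of 0.00 in H9.

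Laminins, fibrillins and other basement membrane genes had 4 of 31 higher and 9 lower, 5 calls holding in every fit. FBN2, an elastic microfibril protein of the embryo, was at 67.6, 75.5 and 66.02 CPM in clone 1-10, against 111.0, 124.2 and 122.1 CPM in wild type (log2 fold change -0.77, SE 0.0638, adjusted p = 1.45e-10). Among matrix proteases and inhibitors 3 of 44 were higher and 11 lower, 7 calls holding. The membrane-anchored MMP17 was at 31.8, 35.8 and 35.4 CPM in clone 1-10, against 60.3, 66.97 and 64.4 CPM in wild type (log2 fold change -0.90, SE 0.0725, adjusted p = 9.17e-11). ADAMTS9 and ADAM33 fell by 1.31 and 1.66 at levels of a few CPM, and the inhibitor TIMP4 rose. Of 14 integrins tested, 1 was higher (ITGB1, by 0.21) and 1 lower.

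**Figure D4:**
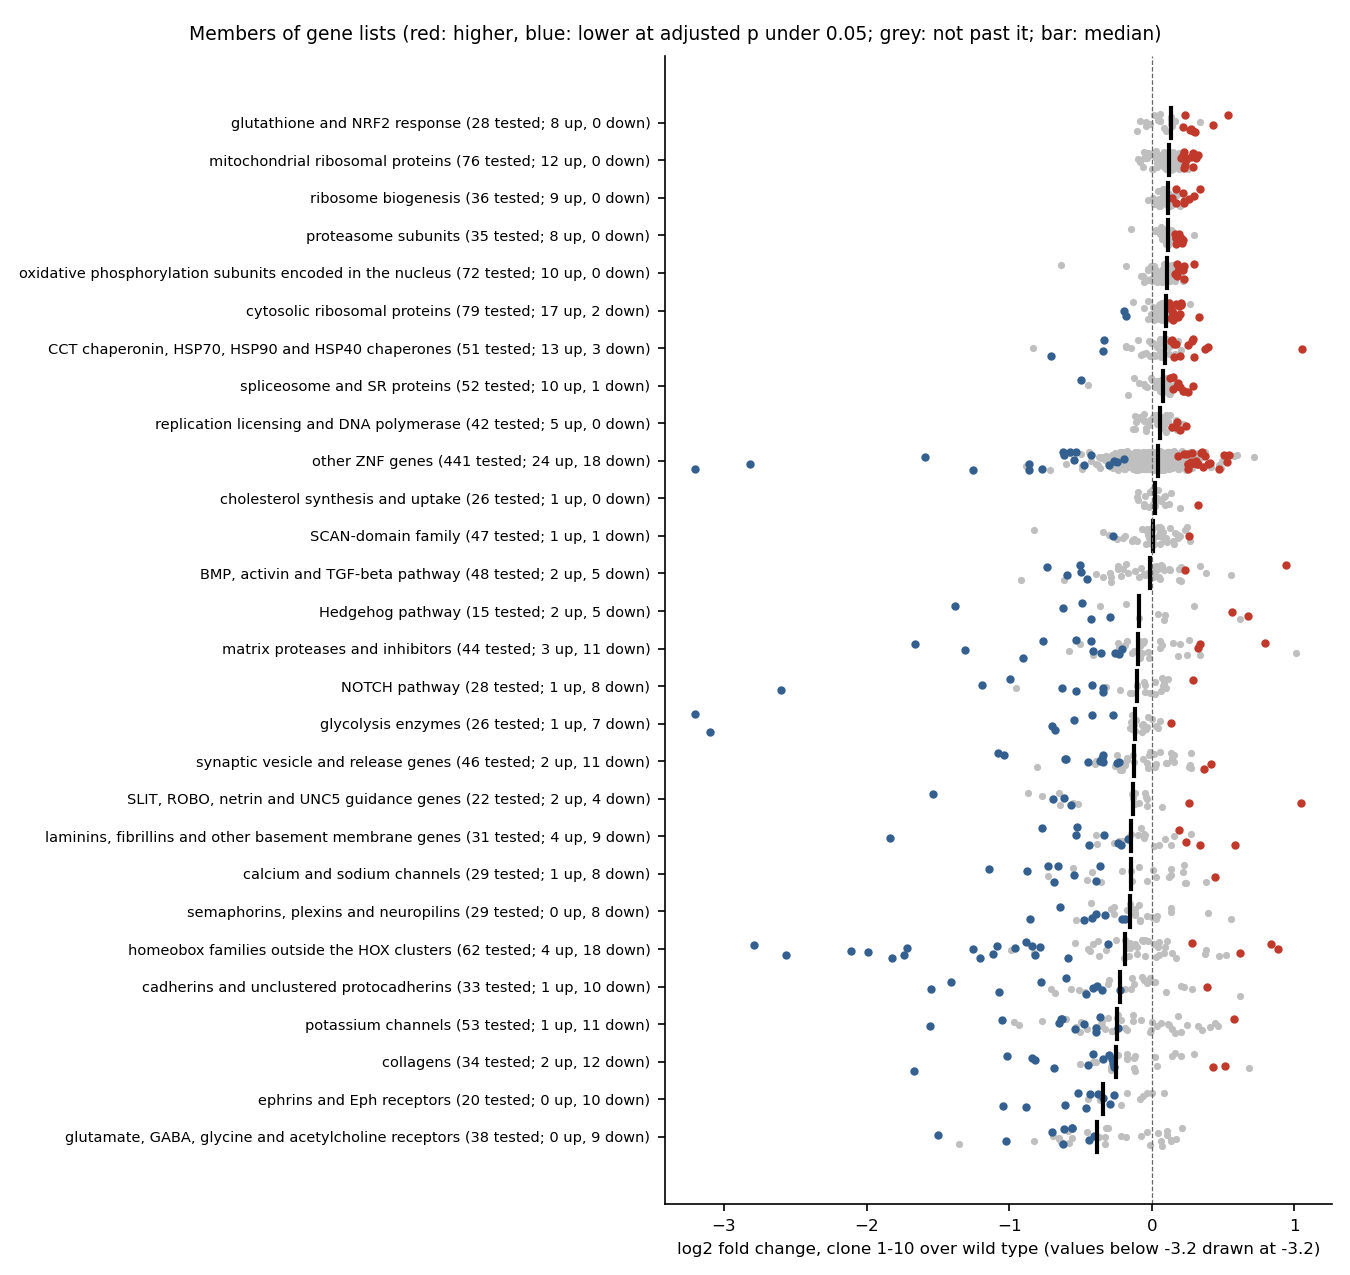
Log2 fold change (clone 1-10 over wild type, horizontal axis) of each tested member of 28 gene lists (rows, ordered by median); red and blue points are higher and lower at adjusted p under 0.05, grey points are not past it, and black bars are list medians; values past the left edge are drawn at it. The rows were chosen from the 68 lists with tested members. Among the lists drawn, surface, guidance, channel and receptor families lie to the left with medians down to -0.38. Machinery families lie in a narrow band just right of 0. Surface and neuronal lists not drawn had medians near 0: integrins (0.02), claudins and tight junction genes (-0.005), and stathmins, tubulins and axonal microtubule genes (0.004).

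Genes of excitable cells were among the weakly expressed that fell. Receptors for glutamate, GABA, glycine and acetylcholine had 0 of 38 higher and 9 lower, with a median of -0.38, and 6 calls held in every fit. GRM3, a metabotropic glutamate receptor, was at 2.604, 3.58 and 4.51 CPM in clone 1-10, against 8.95, 10.02 and 10.3 CPM in wild type (log2 fold change -1.50, SE 0.169, adjusted p = 1.01e-07). GRM4, GRIN2A, GRIN2D and GABRA5 fell by 0.61, 1.02, 0.56 and 0.44. The list median was -0.25 in H9 and -0.14 between the single libraries of clone 1-10 and wild type.

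Potassium channels had 1 of 53 higher and 11 lower, with 4 calls that held in all fits. KCNG1 was at 13.7, 18.1 and 14.3 CPM in clone 1-10, against 23.7, 24.2 and 25.2 CPM in wild type (log2 fold change -0.65, SE 0.103, adjusted p = 3.67e-05). KCNN2, a calcium-activated channel, was the higher one at 41.2, 36.3 and 33.8 CPM in clone 1-10, against 27.2, 25.1 and 22.9 CPM in wild type (log2 fold change 0.58, SE 0.0873, adjusted p = 1.86e-05). Calcium and sodium channels had 1 of 29 higher and 8 lower, 7 holding. The T-type channel gene CACNA1G was at 12.4, 11.6 and 11.7 CPM in clone 1-10, against 17.7, 17.2 and 17.2 CPM in wild type (log2 fold change -0.55, SE 0.105, adjusted p = 0.000488), and its relative CACNA1H was lower by 0.69. CACNA1A, the P/Q-type channel gene, was higher at 42.9, 43.3 and 44.3 CPM in clone 1-10, against 30.2, 32.1 and 33.3 CPM in wild type (log2 fold change 0.44, SE 0.0746, adjusted p = 8.38e-05). KCNN2 and CACNA1A lay above wild type in all 3 libraries.

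Synaptic vesicle and release genes had 2 of 46 higher and 11 lower, 10 of the 13 calls holding in every fit. The adhesion gene NRXN2 was at 17.7, 18.5 and 17.0 CPM in clone 1-10, against 37.7, 36.3 and 35.9 CPM in wild type (log2 fold change -1.04, SE 0.0844, adjusted p = 1.00e-10). SYT7, a calcium sensor of release, was lower by 0.61, SHANK1 and SHANK3, scaffolds of the postsynaptic density, by 0.60 and 0.35, and the NRXN partner NLGN2 by 0.34. SYT11 was higher at 75.9, 74.9 and 74.7 CPM in clone 1-10, against 55.6, 61.9 and 51.8 CPM in wild type (log2 fold change 0.41, SE 0.0670, adjusted p = 5.15e-05). No group overlap was seen for NRXN2 or SYT11.

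Stathmins, tubulins and axonal microtubule genes did not share a direction: 7 of 36 were higher and 7 lower, 8 calls holding. The growth-cone gene GAP43 was at 26.2, 28.6 and 29.8 CPM in clone 1-10, against 17.2, 17.97 and 19.3 CPM in wild type (log2 fold change 0.63, SE 0.0913, adjusted p = 8.99e-06). NEFM, a neurofilament gene, was at 116.7, 115.7 and 107.8 CPM in clone 1-10, against 83.5, 92.4 and 91.96 CPM in wild type (log2 fold change 0.35, SE 0.0602, adjusted p = 0.000134). DPYSL5, a collapsin response mediator, was lower at 33.03, 38.4 and 37.4 CPM in clone 1-10, against 56.5, 62.7 and 64.1 CPM in wild type (log2 fold change -0.76, SE 0.0746, adjusted p = 6.29e-09), and MAP2, a dendritic microtubule protein, by 0.56.

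In metabolism, called glycolysis genes were mostly lower. Of 26 tested genes 1 was higher and 7 lower, and 6 of the 8 calls held. The lactate exporter SLC16A3 (MCT4) was at 1.08, 1.33 and 1.05 CPM in clone 1-10, against 9.27, 5.69 and 15.6 CPM in wild type (log2 fold change -3.10, SE 0.288, adjusted p = 1.77e-09). PDK1, which shuts pyruvate out of the mitochondrion, was at 31.1, 29.9 and 34.4 CPM in clone 1-10, against 50.8, 42.6 and 61.0 CPM in wild type (log2 fold change -0.70, SE 0.0931, adjusted p = 2.10e-06). PFKFB4 and PFKFB3, which set the level of an activator of phosphofructokinase, fell by 0.68 and 0.42. SLC16A3, PDK1 and SLC2A1 were again highest in wild-type library 3. The members that fell are regulators, transporters and minor isoforms; LDHB, the 1 rise, was higher by 0.14 and lost its call without a single library. The summed level of the list was 15161 CPM in clone 1-10 and 15407 CPM in wild type, and its median was 0.04 in H9.

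Genes of the glutathione and NRF2 response, which buffer oxidants, rose without a fall: 8 of 28 were higher, 0 lower, the median was 0.13, and 5 calls held in every fit. NQO1, a quinone reductase and standard NRF2 target, was at 38.05, 42.05 and 38.7 CPM in clone 1-10, against 28.5, 28.8 and 24.8 CPM in wild type (log2 fold change 0.54, SE 0.0815, adjusted p = 1.88e-05). SLC7A11, the cystine importer, was at 89.3, 69.8 and 90.7 CPM in clone 1-10, against 63.8, 57.01 and 63.7 CPM in wild type (log2 fold change 0.43, SE 0.0770, adjusted p = 0.000206). GCLC, PRDX6 and PRDX1, for glutathione synthesis and peroxide removal, rose by 0.27, 0.29 and 0.22. The knockout libraries were above wild type for all 5. The list median was 0.12 in H9 and 0.06 between the single libraries. Of 14 glutathione S-transferases and 4 metallothioneins tested, 0 were called.

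Other metabolic lists held single changes. AMT, of the glycine cleavage system, was at 24.4, 18.8 and 16.8 CPM in clone 1-10, against 37.8, 42.7 and 44.9 CPM in wild type (log2 fold change -1.05, SE 0.0988, adjusted p = 2.45e-09), and was the largest fall in a one-carbon list with 2 of 30 higher and 2 lower, 3 of them holding in every fit. ASNS, asparagine synthetase, was higher by 0.26. In purine and pyrimidine metabolism 3 of 30 were higher and 3 lower; the purine nucleoside phosphorylase PNP was at 110.0, 120.0 and 109.5 CPM in clone 1-10, against 82.02, 89.6 and 81.4 CPM in wild type (log2 fold change 0.42, SE 0.0609, adjusted p = 7.55e-06), opposite to GDA. Cholesterol synthesis and uptake had 1 of 26 higher and 0 lower, a call that lost its significance without a single library. Amino acid transporters had 1 of 24 higher and 6 lower (4 of these calls held in every fit), fatty acid synthesis 1 of 20 and 2, and mitochondrial fatty acid oxidation 1 of 28 and 2, among them ECHDC3.

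In housekeeping machinery a minority of members were called, nearly all of them higher. Mitochondrial ribosomal proteins had 12 of 76 higher and 0 lower with a median of 0.12, nuclear-encoded oxidative phosphorylation subunits 10 of 72 and 0 with 0.11, and proteasome subunits 8 of 35 and 0 with 0.11. Cytosolic ribosomal proteins had 17 of 79 higher and 2 lower with a median of 0.10, spliceosome and SR proteins 10 of 52 and 1 with 0.08, and tRNA synthetases 4 of 16 and 0 with 0.07. Beside these stand 240 rises and 94 falls among the 2286 genes above 100 CPM, 14.6% in all with a median of 0.04, and a median of 0.02 between 10 and 100 CPM. The shares called in the mitochondrial ribosomal list (15.8%) and the oxidative phosphorylation list (13.9%) were near that background. Few of these calls were stable: in all 6 fits 1 held in each list, and 0 among the tRNA synthetases. Without wild-type library 3 the mitochondrial ribosomal and oxidative phosphorylation lists had 1 call each, the proteasome 2, the spliceosome 3, the cytosolic ribosome 4 and the tRNA synthetases 0.

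Named members of these lists were MRPL15, of the mitochondrial ribosome, with 80.1, 76.1 and 87.5 CPM in clone 1-10, against 67.2, 65.4 and 61.1 CPM in wild type (log2 fold change 0.33, SE 0.0651, adjusted p = 0.000762), and ATP5H, of ATP synthase, with 120.2, 121.9 and 117.5 CPM in clone 1-10, against 94.1, 102.5 and 96.6 CPM in wild type (log2 fold change 0.29, SE 0.0577, adjusted p = 0.000610). Ribosome biogenesis factors had 9 of 36 higher, 0 lower, a median of 0.12 and 5 calls that held. NOP56, of the box C/D complex, was at 400.2, 428.9 and 401.0 CPM in clone 1-10, against 343.5, 354.7 and 326.5 CPM in wild type (log2 fold change 0.26, SE 0.0486, adjusted p = 0.000288). NOP2, NOP58 and GAR1, also of nucleolar RNA modification, rose by 0.30, 0.23 and 0.34. The H9 medians were of like size for some of these lists, 0.11 for mitochondrial and 0.13 for cytosolic ribosomal proteins and 0.13 for ribosome biogenesis. For oxidative phosphorylation the H9 median was 0.05, against 0.11 in H1, and for tRNA synthetases 0.14, against 0.07. It was 0.09 for the proteasome and 0.06 for the spliceosome.

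Chaperones had 13 of 51 higher and 3 lower, 8 calls holding. HSPA8, the constitutive HSP70, was at 2795, 2797 and 2876 CPM in clone 1-10, against 2187, 2209 and 2056 CPM in wild type (log2 fold change 0.39, SE 0.0390, adjusted p = 7.37e-09). Its co-chaperone DNAJA1 was higher by 0.28, the endoplasmic reticulum chaperone HSPA5 by 0.26 and HSPH1 by 0.20. HSPB1, a small heat-shock protein, was lower at 74.0, 90.4 and 70.2 CPM in clone 1-10, against 100.5, 99.7 and 97.9 CPM in wild type (log2 fold change -0.34, SE 0.0697, adjusted p = 0.00115). HSPA8 lay above every wild-type library in all 3 knockout libraries.

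In the cell cycle and survival lists most members stayed uncalled. Replication genes had 5 of 42 higher and 0 lower, and none of these calls held in every fit. Cyclins, CDKs and their inhibitors had 3 of 42 higher and 1 lower; CDK6 was at 64.8, 57.8 and 62.5 CPM in clone 1-10, against 47.6, 48.2 and 43.7 CPM in wild type (log2 fold change 0.41, SE 0.0694, adjusted p = 0.000111) and the inhibitor CDKN1A, a p53 target, at 10.6, 12.2 and 10.1 CPM in clone 1-10, against 15.3, 15.2 and 15.5 CPM in wild type (log2 fold change -0.47, SE 0.112, adjusted p = 0.00504). Fanconi and recombination genes had 1 of 26 called. In the BCL2 and caspase list, 2 of 28 were higher and 2 lower, and the lower ones were the mitophagy receptors BNIP3 and BNIP3L, with BNIP3L at 40.2, 35.9 and 42.4 CPM in clone 1-10, against 49.96, 48.2 and 61.0 CPM in wild type (log2 fold change -0.43, SE 0.0829, adjusted p = 0.000469). Of 32 histone genes tested, 1 was higher and 3 lower, none of them stable to leaving out 1 library; most histone messages lack a poly(A) tail.

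Chromatin genes held a few clear members. CHD3, an ATPase of the NuRD complex that KRAB repressors recruit, was at 81.5, 84.04 and 79.6 CPM in clone 1-10, against 47.6, 54.04 and 57.8 CPM in wild type (log2 fold change 0.62, SE 0.0679, adjusted p = 5.48e-08). MBD3, also of NuRD, was at 201.9, 208.2 and 186.3 CPM in clone 1-10, against 159.4, 165.0 and 156.6 CPM in wild type (log2 fold change 0.31, SE 0.0542, adjusted p = 0.000134). CBX5 (HP1 alpha) was lower at 371.3, 351.0 and 385.0 CPM in clone 1-10, against 449.4, 423.2 and 422.6 CPM in wild type (log2 fold change -0.23, SE 0.0483, adjusted p = 0.00152). DNMT3B, the de novo DNA methyltransferase of these cells, was higher by 0.21. Lists as a whole did not lean, with 2 of 20 co-repressor and heterochromatin genes higher and 2 lower, and 3 of 38 DNA methylation, TET and Polycomb genes higher and 3 lower.

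Immune lists were sparse. Interferon-induced genes had 1 of 24 higher and 2 lower, BST2 and IFITM2, the second at 74.8, 84.3 and 77.1 CPM in clone 1-10, against 94.4, 104.7 and 106.6 CPM in wild type (log2 fold change -0.37, SE 0.0634, adjusted p = 0.000108). In complement and coagulation 1 of 25 was called, C3, lower by 4.33 at a wild-type level near 2 CPM. S100 proteins moved against each other: S100A6 fell and S100A16 was lower by 0.73, while S100A11 was at 72.99, 82.8 and 74.2 CPM in clone 1-10, against 61.2, 55.3 and 63.7 CPM in wild type (log2 fold change 0.36, SE 0.0679, adjusted p = 0.000459) and S100A10 was higher by 0.36. ANXA3, an annexin, was higher by 0.50. The serpin list had 2 of 13 higher and 1 lower, SERPINF1 at 24.6, 22.2 and 23.3 CPM in clone 1-10, against 29.5, 34.8 and 35.4 CPM in wild type (log2 fold change -0.51, SE 0.0875, adjusted p = 0.000113).

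Of 583 long noncoding RNA genes tested, 9 were higher and 29 lower, 6.52% in all, beside 12.9% of 13124 protein-coding genes; whether their lower levels account for the gap was not tested. LINC00458 was at 3.56, 4.62 and 3.67 CPM in clone 1-10, against 12.3, 9.24 and 11.7 CPM in wild type (log2 fold change -1.46, SE 0.158, adjusted p = 4.21e-08). LINC01021 was lower by 1.36 and LINC00941 higher by 0.77. Among 263 antisense RNA genes, 2 were higher and 8 lower, 2 of these calls holding in every fit.

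Genes were called on every autosome. By autosome the share of tested genes called ran between 6.47% on chromosome 21 and 17.9% on chromosome 18, and the median log2 fold change between -0.05 on chromosome 22 and 0.02 on chromosome 6. In 503 overlapping windows of 50 neighbouring expressed genes, the median ran between -0.13 (chromosome 22, TST to CBX7) and 0.14 (chromosome 5, SRA1 to PCDHGA8, where protocadherin genes share exons and reads). The window with the most falls, GSN to CDK9 on chromosome 9, held 13 lower genes and 1 higher among its 50, with a median of 0.00.

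Directions in the single libraries matched those of the triplicates more often than not. Of 699 genes higher in the triplicates with at least 1 CPM in either single library, 82.4% were also higher in the single clone 1-10 library than in the single wild type, and of 995 lower genes 79.0% were lower. Over all 13454 such genes, 52.0% were higher and 48.0% lower. Of 128 genes at least 2-fold lower, 108 were lower there (84.4%). Among the largest changes averaging at least 10 CPM, RPRM and CDH6 had the opposite direction there. RPRM was at 15.9 CPM in single clone 1-10 and 17.2 CPM in single wild type, and CDH6 at 4.89 and 4.34 CPM. VGF and DLK1 hardly differed, VGF with 29.0 CPM in single clone 1-10 and 28.9 CPM in single wild type, and DLK1 with 6.77 and 6.91 CPM. Wild type itself differed between the sets for VGF and DLK1: the triplicates held 15.8 ± 0.759 CPM of VGF and 24.1 ± 4.63 CPM of DLK1 (SD, n = 3).

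The H9 line gave a second test with its own controls. Of the 706 genes higher in H1 clone 1-10, 52.8% were called higher and 3.26% lower in the H9 knockout clones, where 15.5% of all genes tested in both were called higher. Of the 1046 lower genes, 52.5% were called lower and 7.27% higher, against 16.1% of all called lower. The difference between the H1 and H9 effects was itself called in 9.08% of 14911 autosomal genes tested, and in 9.35% of the 14103 tested in both. It was called in 17.1% of the H1 rises and in 29.3% of the H1 falls. The H1 libraries that chose these rises and falls also enter the difference. That choice can itself raise their shares, so they are not evidence of a difference between lines.

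Among the 27 of these largest changes described here, 17 did not pass the test of a difference between lines at an adjusted p under 0.05, which does not show that their effects were equal. DNAJA4, counted among these 17, was barely detected in H9, at 0.335 ± 0.110 CPM in the knockout clones and 0.148 ± 0.134 CPM in wild type (SD). The H9 effect of DNAJA4 was not called. PTCH1 had a log2 fold change of 0.72 in H9 (difference -0.04, adjusted p = 0.882), LRRC4B -1.33 (difference 0.03, adjusted p = 0.922) and CELF5 -1.18 (difference 0.08, adjusted p = 0.840). ZNF788 had the opposite sign in H9, at 31.7 ± 2.17 CPM in the knockout clones (6 libraries of the 2 clones) and 18.6 ± 0.374 CPM in wild type (n = 3). IGFBP5 was at 8.37 ± 1.76 CPM in H9 knockout clones and 7.84 ± 1.12 CPM in H9 wild type, and DDIT4 at 39.4 ± 3.70 and 36.3 ± 4.25 CPM (SD). ZNF263 itself had -0.23 in H9 (difference -0.04, adjusted p = 0.876).

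**Figure D5:**
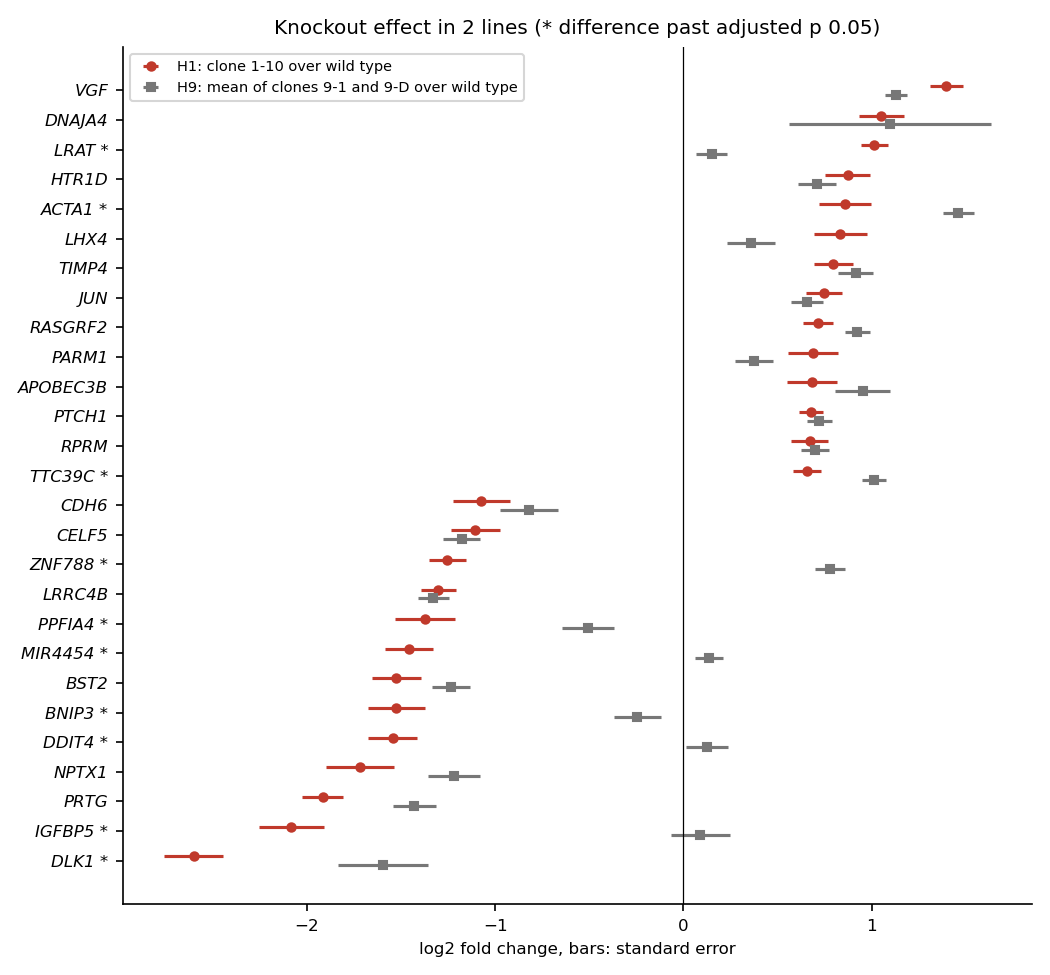
Log2 fold change with its standard error for the 14 largest rises and 13 of the 14 largest falls in H1 clone 1-10 over H1 wild type (red circles) and for the mean of H9 clones 9-1 and 9-D over H9 wild type (grey squares); a star marks a difference between the 2 effects at adjusted p under 0.05. 10 genes carry a star, and ZNF788 is called in opposite directions in the 2 lines.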

How the data were processed

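Poly(A) RNA from H1 and H9 cells was sequenced, per the labels' protocols. The submitters' processing notes name STAR, featureCounts, DESeq2 and hg19, without versions. The authors deposited raw read counts per gene symbol, and those whole-number counts were used here as deposited; the authors' own comparison tables were not used. Of 27130 symbols, 24340 matched RefSeq by symbol and 1347 by an older name, and 24478 were autosomal.

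Counts were scaled by TMM, filtered with edgeR's filterByExpr and tested with edgeR 4.0.16 (R 4.3.3), quasi-likelihood F test, with Benjamini-Hochberg adjustment over all 14897 genes tested and a threshold of 0.05. The difference between H1 and H9 effects came from one fit of the 15 replicated libraries. The scripts were tested on simulated data. DESeq2 1.42.0, RLE size factors, no filter, a replicate block, a shared spread and left-out libraries were the alternatives. Standard errors were derived from the F statistic. The 3 counts that set the floor are worth 0.170 to 0.310 CPM; intervals and bounds (3 counts) cover counting error only.

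The gene lists and members were chosen with earlier results of these data known. Named were ZNF263; the 14 largest rises and 14 largest falls averaging at least 10 CPM; the 8 largest of each below it; the 12 most abundant with a log2 change of at least 0.5; and up to 3 members per direction per list. Of the last, those that lost their call when 1 library was left out were mostly counted and not named, and further members named were chosen after their values were seen. Strand of counting is not given in the sources used here. A few genes that the rule selects are not reported here.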

Additional observations from a re-analysis of the deposited data

Results flagged for a closer look

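Among the largest changes of genes averaging at least 10 CPM, 10 had effects in H1 clone 1-10 that differed from the mean effect in the H9 clones, by edgeR's test of the difference itself (adjusted p under 0.05, log2 scale, H1 effect minus H9 effect). LRAT differed by 0.869: it rose in H1 and did not pass the test in H9, where its log2 fold change was 0.15. The difference was -0.585 for ACTA1 and -0.347 for TTC39C, which rose in both lines and less in H1. DLK1 fell in both lines and more in H1, with a difference of -0.993 (adjusted p = 0.0497), and PPFIA4 likewise with -0.862. IGFBP5 (-2.17), DDIT4 (-1.66), BNIP3 (-1.27) and MIR4454 (-1.58) fell in H1 and did not pass the test in H9. ZNF788 differed by -2.02, lower in clone 1-10 and higher in the H9 knockout clones. The test of the difference is given only for genes chosen by this rule and for ZNF263. For other genes the values of both lines are set side by side. The rule chose genes for large H1 effects in the same H1 libraries that enter this test. Such a choice can overstate the H1 effect, and its part in these differences was not tested. DDIT4, BNIP3 and PPFIA4 were highest in wild-type library 3 of H1, and the part of that library in the differences was not tested.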

How the results depend on the processing

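The labels do not say what libraries with the same replicate number share, so whether the numbers pair the samples is not known. The deviations of libraries with the same number correlated weakly, at 0.046, 0.119 and 0.0357. Those with different numbers correlated at -0.107 to 0.0586, and clone 1-10 library 3 correlated best with wild-type library 1. With the replicate number as a block, 2809 genes were called (1407 higher and 1402 lower), against 1752 without it, and the difference between lines was called in 1628 genes against 1354. DESeq2 called 1169 genes, 552 higher and 617 lower (47.2% higher against 40.3%). RLE size factors called 1762, no filter 1972 (885 higher, 1087 lower), and a spread shared over 15 libraries 1755 (742 higher, 1013 lower). Without both libraries numbered 2, 2386 were called (1146 higher, 1240 lower).

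Leaving out 1 library at a time gave 907 to 2024 calls, with 265 to 860 higher and 642 to 1164 lower; the lowest counts came without wild-type library 3 (907) and without clone 1-10 library 1 (1053). Without clone 1-10 library 3, 462 were higher. The difference between lines gave 1036 to 1381 calls. Of 280 named genes that passed the test, 166 kept their call in all 6 such fits, and all 39 among the largest and most abundant did. RLE factors changed the sign of 0 of 68 list medians, and other settings that of 21. Low counts limit genes below 1 CPM.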

Other observations

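A rule chosen after the values were seen, at most 3 summed counts in one group and at least 30 in the other, found 5 genes silent in clone 1-10 (PKLR, CHP2, ECHDC3, BANK1 and ZNF667-AS1) and 0 silent in wild type. Their H9 counts did not share a pattern. ZNF667-AS1 had 0 counts in the H9 knockout clones and 187 in H9 wild type. CHP2 had 103 and 58 summed counts, and BANK1 60 and 30, over 6 knockout and 3 wild-type libraries. PKLR (3 and 3) and ECHDC3 (7 and 10) were near 0 in both. In the single H1 libraries ZNF667-AS1 had 0 counts in clone 1-10, 0 in clone 1-5 and 7 in wild type.

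Of 275 named genes called in H1, 180 were also called in H9, 161 in the same direction and 19 in the opposite one. Over all genes tested in both lines, 15.5% were called higher and 16.1% lower in H9. The named genes were picked mostly for large changes in H1, so their share is not that of H1 calls at large. BTF3 changed in the same direction, at 189 ± 8.25 CPM in the H9 knockout clones and 334 ± 11.4 CPM in H9 wild type (SD, n = 6 and n = 3 here and below). GDA, lower in H1 clone 1-10, was at 19.1 ± 3.50 CPM in the H9 knockout clones and 0.195 ± 0.0596 CPM in H9 wild type. The clones differed, with 21.3 to 23.2 CPM of GDA in clone 9-1 and 15.2 to 17.1 CPM in clone 9-D. SEC14L4, also lower in H1, was at 2.89 ± 0.358 CPM in the H9 knockout clones and 0.329 ± 0.0843 CPM in H9 wild type. The log2 fold change in H9 was 0.31 for MALAT1, 1.09 for BHLHE40, 0.45 for CDKN1A, 0.98 for LINC00458, 0.22 for PDK1 and 0.31 for AMT, all lower in H1. It was -0.23 for CHD3, -0.46 for HESX1 and -0.27 for CACNA1A, all higher in H1. The others were ABCA1, ACSS2, PHC1, RPL13A, RPL22L1, SOX8, TET1 and ZNF788. For these genes other than ZNF788, the test of the difference between lines is not given.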
